A study of Mus musculus with 9 samples.

Results

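The genes described here set the pace of the G1 phase of the cell cycle: the D cyclins Ccnd1, Ccnd2 and Ccnd3, their kinases Cdk4 and Cdk6, and the CDK inhibitors Cdkn1a, Cdkn1b, Cdkn2a, Cdkn2b and Cdkn2c. They were chosen by symbol, and all 10 were found among the 54876 genes of the table, each under 1 gene ID. The cells were MIN6 cells, a mouse insulinoma line of strain C57BL/6 that serves as a model of pancreatic beta cells. RNA was sequenced after 24 h at low arginine (0.1 times the usual concentration), standard arginine (1 times) or high arginine (20 times), with 3 libraries per group. The labels name no other treatment and no genetic change in any group, and they do not say that replicates came from separate cultures. The p-values therefore reflect the spread among these libraries alone, which may be technical. As background, MIN6 cells come from a tumour of a mouse that carried a viral large T antigen driven in beta cells, and large T antigen binds the RB and p53 proteins, which lie downstream and upstream of these genes.

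A D cyclin binds CDK4 or CDK6, and the pair phosphorylates RB, which then releases E2F transcription factors and lets the cell enter S phase. The INK4 inhibitors, encoded by Cdkn2a (p16), Cdkn2b (p15) and Cdkn2c (p18), bind CDK4 and CDK6 and block their pairing with D cyclins. The CIP/KIP inhibitors, encoded by Cdkn1a (p21) and Cdkn1b (p27), act mainly on CDK2 complexes. Beta cells are known to depend on CDK4 and on cyclin D2 for their postnatal expansion, and to gather p16 with age. Cdkn2a also encodes p19ARF, from another first exon and reading frame, and a value per gene cannot separate the 2 products.

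The members lie on 6 chromosomes (GRCm38). Cdkn2a (chromosome 4, 89274471 to 89294653) and Cdkn2b (chromosome 4, 89306299 to 89311039) are neighbours on the minus strand, 11.6 kb apart, and Cdkn2c (chromosome 4, 109660876 to 109667189) lies 20.3 Mb further along. Cdk4 is at chromosome 10, 127063534 to 127067920, and Cdk6 at chromosome 5, 3341485 to 3531008. Ccnd2 (chromosome 6, 127125162 to 127152193) and Cdkn1b (chromosome 6, 134920401 to 134925513) share a chromosome, as do Cdkn1a (chromosome 17, 29090976 to 29100727) and Ccnd3 (chromosome 17, 47505051 to 47599691). Ccnd1 is at chromosome 7, 144929931 to 144939925.

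Promoter sequences were taken from RefSeq (GRCm38.p6) for the 8 members that matched by symbol, which have 12 annotated starts; Ccnd1 and Ccnd2 were not matched. The 250 bases before each start were searched on both strands for an E-box (CACGTG, bound by MYC and MAX among others), a cAMP response element (TGACGTCA, bound by CREB and ATF factors) with its shorter core (TGACG, part of the full element), an E2F site (TTTCCCGC or TTTGGCGC), a GC box (GGGCGG), a CARE core (TGATGNAA), a TATA box (TATAAA), a STAT site (TTCNNNGAA) and a forkhead site (TGTTTAC). The 4 sequences below belong to the member that changed most in low arginine, the member that changed most in high arginine, the neighbour of the latter and the kinase, and show how their promoters differ. Each is given 5′ to 3′ on the gene's strand up to the last base before the gene begins in the deposited table, with matches to any of these motifs other than the shorter core in capitals. They are Cdkn1b (chr6:134920151-134920400, plus strand), Cdkn2b (chr4:89311040-89311282, minus strand), the upstream start of Cdkn2a (chr4:89294654-89294869, minus strand) and Cdk4 (chr10:127063285-127063533, plus strand).
Cdkn1b: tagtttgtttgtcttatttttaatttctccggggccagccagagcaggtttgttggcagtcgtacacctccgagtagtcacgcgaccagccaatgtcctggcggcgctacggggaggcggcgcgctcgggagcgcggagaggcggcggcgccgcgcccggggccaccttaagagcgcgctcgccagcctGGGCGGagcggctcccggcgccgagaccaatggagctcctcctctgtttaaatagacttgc
Cdkn2b: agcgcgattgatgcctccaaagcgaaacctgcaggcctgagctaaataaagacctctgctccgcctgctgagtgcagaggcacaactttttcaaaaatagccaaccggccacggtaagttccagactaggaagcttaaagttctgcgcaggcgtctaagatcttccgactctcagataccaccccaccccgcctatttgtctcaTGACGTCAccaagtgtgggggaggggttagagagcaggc
Cdkn2a: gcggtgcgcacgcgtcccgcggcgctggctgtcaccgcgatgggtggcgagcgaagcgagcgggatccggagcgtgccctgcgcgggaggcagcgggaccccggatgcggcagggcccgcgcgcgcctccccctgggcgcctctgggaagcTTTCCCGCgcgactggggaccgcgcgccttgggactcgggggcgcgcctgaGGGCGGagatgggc
Cdk4: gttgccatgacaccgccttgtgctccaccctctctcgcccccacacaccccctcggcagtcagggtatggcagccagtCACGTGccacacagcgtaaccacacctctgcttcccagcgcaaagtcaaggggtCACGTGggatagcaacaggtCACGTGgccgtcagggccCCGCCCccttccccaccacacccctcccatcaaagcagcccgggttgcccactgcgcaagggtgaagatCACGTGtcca

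The Cdk4 promoter held 4 E-boxes, at bases -172, -118, -98 and -11 before the RefSeq start, where 6.02% of the 32851 promoters of the same length held at least 1. Cdkn2b held a full cAMP response element from base -46 to -39, found in 1.55% of promoters. Neither start of Cdkn2a held that element, and its upstream start held an E2F match from base -99 to -92, found in 0.895% of promoters for that spelling and 0.417% for the other. GC boxes, present in 32.7% of promoters, occurred once for Cdkn1b and 3 times for the upstream start of Cdkn2c, and were not matched for Cdkn2b. The remaining motifs were rare among members: Cdk6 held 1 E-box and 1 TATA box (12.4% of promoters) and the upstream start of Ccnd3 held 1 forkhead match (3.17%), while no member held a CARE core (3.45%) or a STAT match (7.02%). The shorter core TGACG, in 17.8% of promoters, was matched for Ccnd3, Cdk4, Cdk6 and Cdkn2b. GC content ran from 42.8% at the downstream start of Cdkn2c to 78.4% at the upstream start of Cdkn2a, against a median of 52.4% over all promoters. A match describes these letters only.

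Reads in genes numbered 24835801 to 26300872 in low, 21550637 to 24452040 in standard and 23747593 to 24163731 in high arginine. Each low arginine library was thus somewhat deeper than every library of the other groups. Of 11 beta cell markers 9 had a mean of at least 1 FPKM, among them Ins2 at 46630 to 53720 FPKM, while Slc2a2, the rodent beta cell glucose transporter, was at a mean of 0.0103 FPKM. The beta cell list summed to 74200 to 82780 FPKM over the 9 libraries and the PP cell list to 44.2 to 59.0 FPKM. Markers of acinar and ductal cells, fibroblasts, endothelium and leukocytes were near 0, with a highest list sum of 0.537 FPKM. The alpha cell list, mostly Ttr, summed to 260 to 341 FPKM in low arginine and to 890 to 991 FPKM in standard arginine, and the delta cell list, mostly Sst, to 8663 to 11260 FPKM and 5383 to 6162 FPKM. Hhex, which defines delta cells, was at a mean of 0.00241 FPKM. These sums moved with low arginine alongside the genes below, and their part in the results was not tested. In bulk RNA, fewer cells of a type and less RNA per cell cannot be told apart.

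FPKM, the unit of the deposited values, scales the reads of a gene to its length and to the depth of the library, so levels can be compared between genes. In standard arginine the order from high to low was Cdkn2c at 202 ± 4.60 FPKM (SD, n = 3, as for all means here), Cdkn1a at 149 ± 4.47, Cdkn2a at 135 ± 5.96, Cdkn1b at 56.5 ± 3.82, Cdk4 at 50.1 ± 3.55, Cdkn2b at 18.1 ± 1.17, Ccnd2 at 15.5 ± 0.814, Ccnd3 at 6.10 ± 0.580, Ccnd1 at 0.0481 ± 0.0291 and Cdk6 at 0.0104 ± 0.00649 FPKM. Neighbours in this order did not overlap between libraries, except Ccnd1 and Cdk6. The order of the means was the same in low arginine, where Cdkn1a, Cdkn2a and Cdkn1b were at 110 ± 11.1, 95.3 ± 3.50 and 92.7 ± 1.22 FPKM, and Cdkn2a overlapped both of the others, which did not overlap each other. In high arginine Ccnd2, at 20.2 ± 0.547 FPKM, stood above Cdkn2b, at 11.9 ± 0.326 FPKM.

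Of the 10 members, 8 had at least 1 FPKM in all 9 libraries and passed the filter on low values, which asked for this in 3 libraries. Ccnd1 and Cdk6 reached 1 FPKM in none and were not tested.

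**Figure D1:**
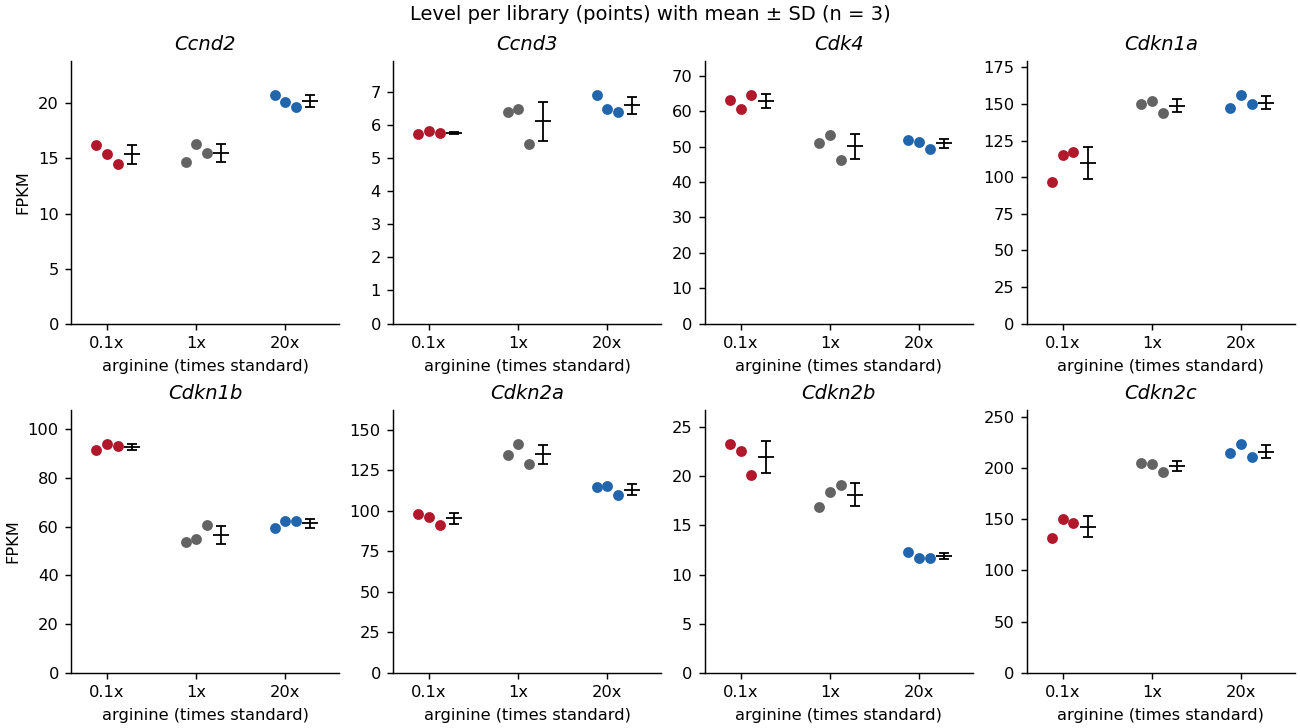
FPKM (y axis, from 0) of the 8 tested members in each library (points) by arginine concentration (x axis, times standard), with mean ± SD of 3 libraries in black. Cdkn1b is high in the 3 low arginine libraries (91.4 to 93.8 FPKM), Ccnd2 is high in the 3 high arginine libraries (19.6 to 20.7 FPKM), and Cdkn2b falls from the low to the high arginine libraries with no overlap.

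The first comparison asked what a deficient arginine supply did to these genes. Cdkn1b rose, Cdk4 and Cdkn2b rose less, and Cdkn1a, Cdkn2a and Cdkn2c fell; Ccnd2 and Ccnd3 did not pass the test. Thus 3 members were called higher and 3 lower by limma (Benjamini-Hochberg adjusted p under 0.05), with a median log2 change of -0.04 over the 8 against 0.001 over all genes tested. Among all 12300 genes tested 30.3% were called higher and 31.9% lower, so a call in this comparison was common. The 3 libraries of each group did not overlap for 6 of the 8, where this held for 65.4% of all genes tested.

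Cdkn1b, which encodes p27, was at 91.4, 93.8 and 93.0 FPKM in the 3 low arginine libraries and at 53.8, 54.9 and 60.9 FPKM in the standard ones. Every low arginine library was far above every standard library, a ratio of means of 1.64. Its log2 change, on the log2(FPKM + 1) scale used for every change here, was 0.71 (SE 0.06, adjusted p 2.53e-06). The gene held 10922 to 11918 reads per low arginine library. Lockd, a long noncoding RNA gene that lies within 5 kb of Cdkn1b on the same strand without overlap, did not rise with it: it fell with low arginine, to 15.3 ± 1.54 FPKM, a change of -0.23 (SE 0.07, adjusted p 0.0211).

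Cdkn1a, which encodes p21, moved the other way within the same inhibitor family. It was at 96.8, 115 and 117 FPKM in low and at 150, 152 and 144 FPKM in standard arginine. All 3 low arginine libraries were below the standard ones, with replicate 1 the lowest, and the log2 change was -0.44 (SE 0.07, adjusted p 0.000363). The gene AC167363.2 overlaps Cdkn1a by 1046 bases on the other strand, but at 1.72 ± 0.154 FPKM in low arginine it was a small fraction of the gene's level.

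Cdkn2c, which encodes p18 and was the most abundant member, was at 132, 151 and 147 FPKM in low and at 205, 204 and 197 FPKM in standard arginine. The low arginine libraries were all lower, replicate 1 again the lowest, with a log2 change of -0.50 (SE 0.06, adjusted p 4.26e-05). Cdkn2a was at 98.2, 96.2 and 91.4 FPKM in low and at 134, 141 and 129 FPKM in standard arginine. Its libraries did not overlap between groups, and it fell by 0.50 (SE 0.06, adjusted p 2.25e-05). Cdkn2b, its neighbour, was at 23.3, 22.6 and 20.2 FPKM in low and at 16.9, 18.4 and 19.1 FPKM in standard arginine. Here the low arginine libraries were all higher, by a small margin, with a log2 change of 0.26 (SE 0.07, adjusted p 0.00597). The adjacent INK4 genes thus changed in opposite directions.

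Cdk4, the catalytic partner of the D cyclins, was at 63.2, 60.7 and 64.5 FPKM in low and at 50.9, 53.2 and 46.2 FPKM in standard arginine. The groups did not overlap, the ratio of means was 1.25 and the log2 change was 0.32 (SE 0.06, adjusted p 0.000908). Tspan31, a tetraspanin gene that overlaps the end of Cdk4 by 641 bases on the other strand, was as abundant but fell, from 60.8 ± 4.63 to 53.0 ± 1.46 FPKM (log2 change -0.19, adjusted p 0.0243). The sources used here do not say whether reads were counted by strand, so reads where the genes overlap may belong to either gene.

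Neither tested D cyclin passed the test. Ccnd2 was at 16.2, 15.4 and 14.5 FPKM in low and at 14.7, 16.3 and 15.5 FPKM in standard arginine, with overlapping libraries and a log2 change of -0.01 (SE 0.06, adjusted p 0.861). Ccnd3 was at 5.72, 5.79 and 5.74 FPKM in low and at 6.38, 6.48 and 5.43 FPKM in standard arginine, where replicate 3 was below every low arginine library; the log2 change was -0.07 (SE 0.07, adjusted p 0.393). Ccnd3 overlaps Bysl, a ribosome biogenesis gene, by 361 bases on the other strand, and Bysl fell by 0.44 (SE 0.08, adjusted p 0.000952).

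The size of these changes depended on the scaling between libraries. Rescaling to TPM, in which every library has the same summed level, moved the median log2 change of all genes from 0.001 to 0.12, and the genes called among all from 3723 higher and 3923 lower to 4843 higher and 3018 lower. The 6 calls kept their direction and their call in TPM and with quantile normalization, but with the latter the falls of Cdkn1a, Cdkn2a and Cdkn2c shrank to -0.21, -0.28 and -0.28. The change of Cdkn2b was 0.40 in TPM, and the median over the 8 members turned from -0.04 to 0.08.

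**Figure D2:**
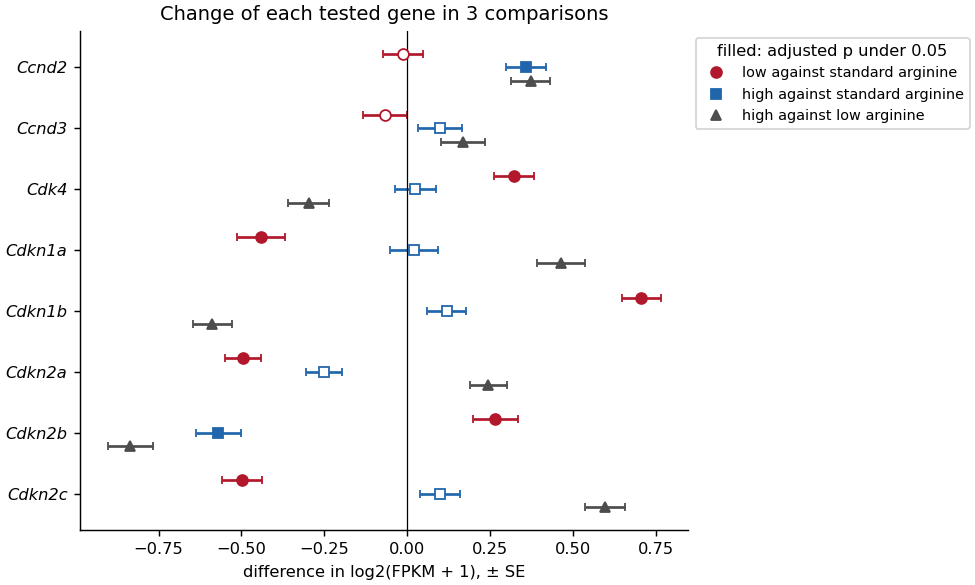
Difference in log2(FPKM + 1) (x axis) for each of the 8 tested members (y axis) in 3 comparisons, with SE bars; filled symbols passed limma at an adjusted p under 0.05. Low arginine (circles) raised Cdkn1b by 0.71 and Cdk4 by 0.32 and lowered Cdkn1a, Cdkn2a and Cdkn2c, and high arginine (squares) raised Ccnd2 by 0.36 and lowered Cdkn2b.

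High against standard arginine showed what excess arginine did. Ccnd2 rose and Cdkn2b fell, and no other member passed the test. These were 1 member higher and 1 lower, where 0.138% of all genes tested were called higher and 0.171% lower. At an unadjusted p under 0.05 there were 3 members, the third being Cdkn2a, against 14.3% of all genes. The libraries of the groups did not overlap for 4 of the 8 members, namely Ccnd2, Cdkn2a, Cdkn2b and Cdkn2c, against 18.5% of all genes. That Cdkn2b fell here was known when the members were chosen.

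Ccnd2, which encodes the D cyclin most abundant in these cells, was at 20.7, 20.2 and 19.6 FPKM in high and at 14.7, 16.3 and 15.5 FPKM in standard arginine. Each high arginine library was above each standard library, a ratio of means of 1.30, and the log2 change was 0.36 (SE 0.06, adjusted p 0.0437). The gene held 3189 to 4537 reads per library. The size was steady, from 0.32 to 0.39 over 18 alternative settings, but the call was not: it held in 6 of the 18, and the adjusted p ran from 0.0206 to 0.214. Of the settings that leave out 1 library, only the one without low arginine replicate 1 kept it.

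Cdkn2b, which encodes p15, was at 12.3, 11.7 and 11.7 FPKM in high and at 16.9, 18.4 and 19.1 FPKM in standard arginine. The lowest standard library was well above the highest high arginine library, and the log2 change was -0.57 (SE 0.07, adjusted p 0.0159). It rests on 374 to 598 reads per library in these groups. The call held in 14 of 18 alternative settings. It was lost without a filter on low values (adjusted p 0.0684), without standard replicate 2 (0.0793), without high replicate 2 (0.0928) and without high replicate 3 (0.110), while the change stayed between -0.62 and -0.53.

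Cdkn2a was at 114, 115 and 109 FPKM in high arginine, below the 3 standard libraries, with a log2 change of -0.25 (SE 0.06) that did not pass (adjusted p 0.0991). It did pass in TPM (adjusted p 0.0468), with quantile normalization (0.0345) and with the replicate number as a block (0.0488). Cdkn2c was at 215, 223 and 211 FPKM, above the standard libraries without overlap, with a log2 change of 0.10 (SE 0.06, adjusted p 0.494). Cdkn1b, at 59.3, 62.3 and 62.5 FPKM, overlapped standard arginine and had a log2 change of 0.12 (SE 0.06, adjusted p 0.377). Cdkn1a, Cdk4 and Ccnd3 overlapped their standard libraries too, at 151 ± 4.43, 50.9 ± 1.30 and 6.59 ± 0.262 FPKM, with log2 changes of 0.02, 0.02 and 0.10 and adjusted p of 0.915, 0.881 and 0.528.

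Last, high was set against low arginine, which is also the test of whether the responses to excess and to deficiency differed. All 8 tested members were called, 5 higher and 3 lower in high arginine, where 32.3% and 29.2% of all genes were. No member overlapped between these groups, against 68.4% of all genes without overlap. This comparison uses the libraries of the others, and low and high arginine were set against the same 3 standard libraries. In TPM the calls among all genes moved from 3967 higher and 3594 lower to 3094 higher and 4735 lower. Cdkn2b had the largest difference, -0.84 (SE 0.07, adjusted p 2.32e-06). Cdkn2c was higher in high arginine by 0.60 (SE 0.06, adjusted p 1.17e-05) and Cdkn1b lower, at -0.59 (SE 0.06, adjusted p 9.47e-06). The libraries of Cdkn2b and Cdkn2c lay apart in all 3 groups in the order of the arginine dose, Cdkn2b from high to low and Cdkn2c from low to high. However, the step of Cdkn2c from standard to high arginine did not pass the test. The share of all genes with such an order was not counted, so it cannot be called particular to these members.

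Cdkn1a was higher in high than in low arginine by 0.46 (SE 0.07), Ccnd2 by 0.37 (SE 0.06) and Cdkn2a by 0.24 (SE 0.06), while Cdk4 was lower, at -0.30 (SE 0.06), with adjusted p of 0.000254, 0.000322, 0.00281 and 0.00152. With quantile normalization the differences of Cdkn1a and Cdkn2c shrank to 0.19 and 0.36 and that of Cdk4 grew to -0.46, all still called, while Cdkn2a no longer differed by the test, at 0.02 (adjusted p 0.762). Ccnd3 was higher by 0.17 (SE 0.07, adjusted p 0.0483), and this call held in 7 of 18 alternative settings, with adjusted p of 0.0135 to 0.370.

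The makeup of each class was described by shares of its summed FPKM, which a scale factor per library does not change. The 5 inhibitors together came to 462 ± 19.1 FPKM in low arginine, 560 ± 10.4 FPKM in standard arginine and 554 ± 13.2 FPKM in high arginine. Within that sum Cdkn1b took 20.1 ± 0.576% at low arginine, 10.1 ± 0.850% at the usual supply and 11.1 ± 0.347% at excess. Cdkn2b took 4.77 ± 0.484%, 3.24 ± 0.238% and 2.15 ± 0.0894% in the same order. Cdkn2c took 30.9 ± 0.925%, 36.1 ± 0.498% and 39.1 ± 0.281%, and Cdkn1a 23.7 ± 1.56%, 26.5 ± 0.348% and 27.3 ± 0.338%. Cdkn2a took its largest share in standard arginine, 24.1 ± 0.618%, against 20.6 ± 1.44% in low and 20.4 ± 0.400% in high arginine. In FPKM, low arginine thus gave a smaller inhibitor sum in which p27 transcripts had a larger share. Unlike the shares, the sum depends on the scaling between libraries, and it was not taken under another scaling. With quantile normalization the log2 changes of Cdkn1a, Cdkn2a and Cdkn2c in low arginine were only -0.21, -0.28 and -0.28, and that of Cdkn1b was 0.88.

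Ccnd2 took most of the D cyclin sum in every library, 72.4 ± 1.18% at low arginine, 71.7 ± 2.06% at the usual supply and 75.3 ± 0.262% at excess, and Ccnd3 nearly all the rest. The D cyclin sum was 21.2 ± 0.876 FPKM in low arginine, 21.7 ± 1.05 FPKM with the usual supply and 26.8 ± 0.790 FPKM with excess, and the last did not overlap the others. Cdk4 made up at least 99.9% of the CDK4 and CDK6 sum in every library.

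**Figure D3:**
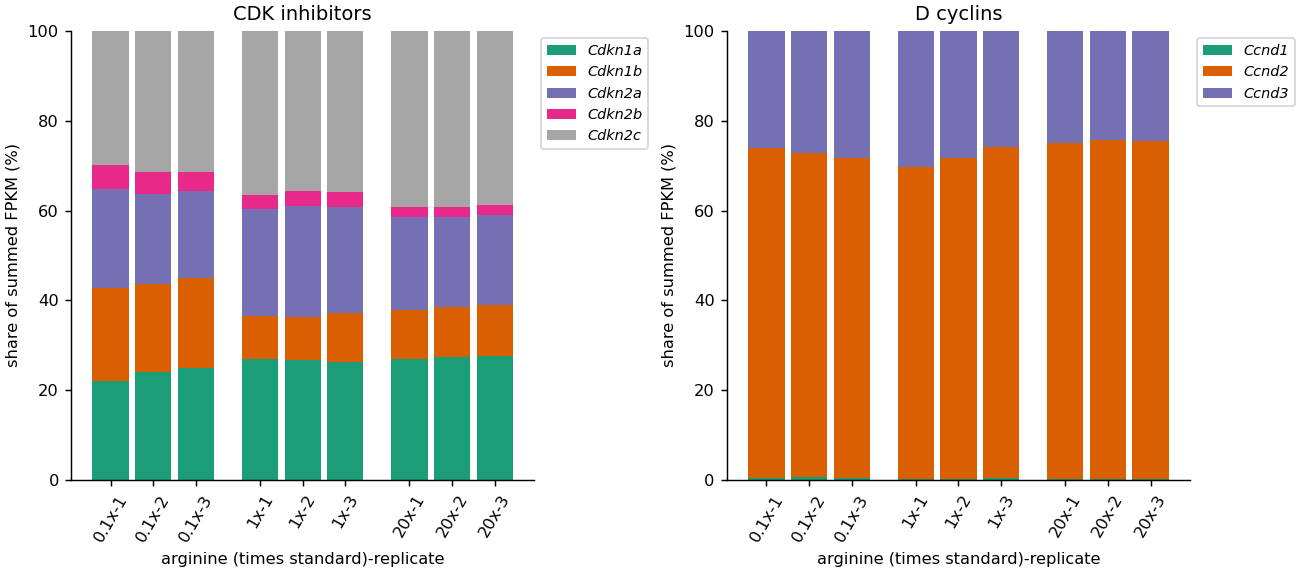
Share of the summed FPKM of the 5 CDK inhibitors (left) and of the 3 D cyclins (right), in % (y axis), in each of the 9 libraries (x axis: arginine concentration and replicate). Cdkn1b takes 20.1% of the inhibitor sum in low and 10.1% in standard arginine, and Ccnd2 takes over 69% of the D cyclin sum in each library.

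Cyclin D1 and CDK6 transcripts were scarce. Ccnd1 had 9, 18 and 10 reads at 0.1 times arginine, then 2, 5 and 8 reads at 1 times and 3, 6 and 5 reads at 20 times. Low arginine libraries had the most reads, but per length and depth they overlapped the standard ones (0.0728 FPKM at the lowest against 0.0756 FPKM at the highest). Oraov1, which overlaps Ccnd1 by 1771 bases on the other strand, rose from 2.97 ± 0.0251 to 4.70 ± 0.405 FPKM in low arginine, and its part in the Ccnd1 reads was not tested. Cdk6 had 16, 17 and 22 reads at 0.1 times arginine, then 6, 2 and 2 reads at 1 times and 1, 3 and 5 reads at 20 times, with no overlap between low arginine and the rest. Without a filter on low values the Cdk6 difference between low and standard arginine passed the test (0.05 on the log2 scale, adjusted p 0.0111) and that of Ccnd1 did not (0.06, adjusted p 0.170). Both genes stayed under 0.14 FPKM in every library.

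**Figure D4:**
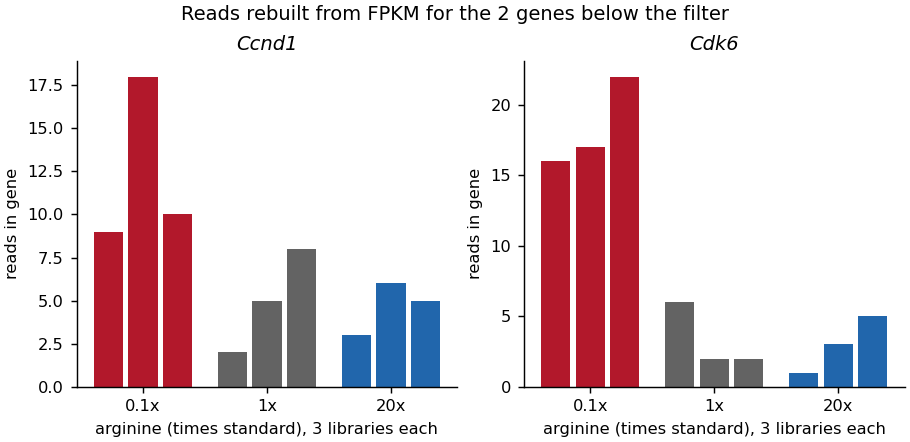
Reads in Ccnd1 (left) and Cdk6 (right), rebuilt from FPKM and gene length (y axis), in each of the 3 libraries per arginine concentration (x axis). Cdk6 has 16 to 22 reads in the low arginine libraries and 1 to 6 in the others.

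Partners of these genes came from lists written from textbook knowledge, with earlier results of these data known. In low arginine the other inhibitors fell: Cdkn2d, the INK4 gene for p19INK4D, from 112 to 69.4 FPKM (log2 change -0.69, SE 0.07) and Cdkn3, a CDK-binding phosphatase, from 11.9 to 4.75 FPKM (-1.18, SE 0.11); Cdkn1c was below the filter. Of 13 RB and E2F genes 7 rose and 1 fell, where 30.3% and 31.9% of all genes tested did. Rbl1, which encodes the RB relative p107, rose from 6.23 to 11.9 FPKM (0.83, SE 0.07), and the E2F factors E2f8, E2f7 and E2f4, which mostly repress, rose by 0.31, 0.29 and 0.22. The activating factor E2f2 rose by 0.30 (SE 0.07). The genes that follow were named after their values were seen. E2f1 and E2f3, also activating factors, did not pass, at -0.08 and 0.16 (adjusted p 0.366 and 0.0617). E2f5 and E2f6, which mostly repress too, had log2 changes of -0.16 and -0.10 that did not pass (adjusted p 0.262 and 0.131). The gene that fell was Rbl2, an RB relative, at -0.18 (adjusted p 0.0369). The list median was 0.22, against 0.001 over all genes, and in TPM 9 rose and 0 fell by limma (unadjusted p under 0.05 for 9), with a median of 0.35. Among all 12300 genes tested, TPM gave 4843 higher and 3018 lower, with a median of 0.12. These are the background for the TPM counts of every list.

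Of 10 tested genes of CDK2 and CDK activation 6 rose and 2 fell, where 30.3% and 31.9% of all genes did. Their median was 0.34, and in TPM 7 rose and 1 fell, against 4843 and 3018 of all 12300 genes. Cdc37, the chaperone partner that loads CDK4 onto HSP90, fell by 0.57 (SE 0.06) while Cdk4 itself rose. Wee1, an inhibitory kinase of CDKs, rose by 0.44 (SE 0.06), Ccnh, the cyclin of the CDK-activating kinase, by 0.68 (SE 0.09), and Cdc25a, a phosphatase that activates CDK2, by 0.39 (SE 0.06). Of 20 tested genes of D cyclin and inhibitor turnover 7 rose and 6 fell, shares near the 30.3% and 31.9% among all genes. The list median was 0.00034, and in TPM 9 rose and 6 fell, with a median of 0.12. Rbx1, a subunit of the SCF ubiquitin ligase that degrades p27, and Cks1b, its cofactor, fell by 0.48 and 0.49. Other genes of that ligase, named after their values were seen, differed: Skp1a fell by 0.43 and Cul1 rose by 0.26 (adjusted p 0.00801). Skp2, at -0.02, did not pass (adjusted p 0.828). Gsk3a, a GSK3 kinase, fell by 0.44, and Dtl, the substrate receptor of a ligase for p21, rose by 0.68. Here too, genes named after their values were seen differed. Gsk3b, the other GSK3 kinase, rose by 0.25 (adjusted p 0.0173). In the ligase of Dtl, Ddb1 fell by 0.43 while Cul4a and Cul4b rose by 0.27 and 0.56 (adjusted p 0.000413, 0.00181 and 0.00199).

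Of 25 tested transcriptional regulators 14 rose and 3 fell, where 30.3% and 31.9% of all genes did. The list median was 0.26, and in TPM 19 rose and 3 fell, with a median of 0.44. Ddit3, which encodes CHOP, had the smallest p and rose from 30.6 to 141 FPKM (2.17, SE 0.07). Myc, a regulator of Ccnd2, Cdk4 and Cdkn1a, rose from 1.02 to 4.68 FPKM (1.49, SE 0.08), and the Krüppel-like factors Klf6 and Klf4 by 0.83 and 0.75. Trp53, which encodes p53, an activator of Cdkn1a, was singled out after its values were seen: it rose from 12.2 to 25.0 FPKM (0.98, SE 0.09, adjusted p 5.1e-06), while Cdkn1a fell. In high arginine E2f2, an activating E2F factor, was the 1 gene called among these lists, rising from 16.2 to 21.6 FPKM (0.40, SE 0.07, adjusted p 0.0437). No RB and E2F gene was called there in 12 of 18 alternative settings, among them every setting without a standard or high arginine library. Of the 13 RB and E2F genes 12 had a log2 change above 0 in high arginine, and the share of all genes above 0 was not counted. Without adjustment 6 of the 13 passed, against 14.3% of all genes. The median of the 13 was 0.11, against 0.01 over all genes.

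**Figure D5:**
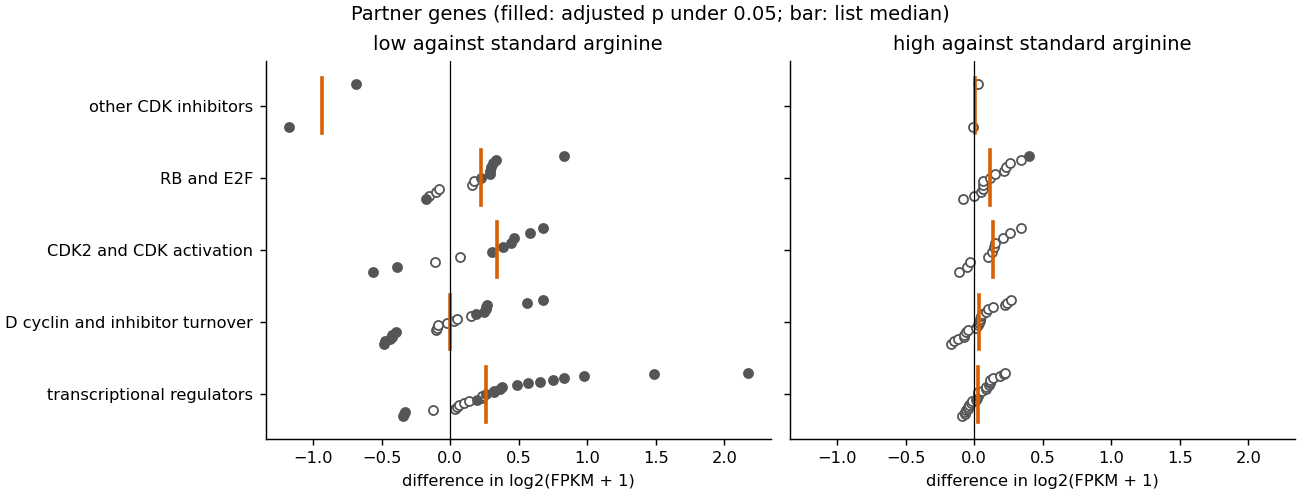
Difference in log2(FPKM + 1) (x axis) of each tested partner gene (points, filled where the adjusted p was under 0.05) in 5 lists (y axis), for low (left) and high (right) against standard arginine, with list medians as bars. Most filled points lie in the low arginine panel, and E2f2 is the only filled point in the high arginine panel.

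Genes whose pattern over the 9 libraries was most like that of a member were listed by Pearson correlation of log2(FPKM + 1) among 7021 protein-coding genes with a mean of at least 5 FPKM. These values describe 9 libraries that share 3 group means. The closest were Hspa4, Prkacb and Rab10 to Cdkn1b (r of 0.996 to 0.998), Vps4a, Tmem50b and Nrsn1 to Cdkn2c (0.997 each), Cdca3, Dynll1 and Immp1l to Cdkn1a (0.992 to 0.994), Fbxw4, Bak1 and Zfp282 to Cdk4 (0.985 to 0.988) and Tkfc, Itm2c and Yipf2 to Cdkn2a (0.980 to 0.986). Likeness was lower for Ccnd3, with Mrpl10, Zdhhc7 and Mrps34 (0.958 to 0.972), for Ccnd2, with Ppp2r1b, Slc30a8 and Nuak1 (0.935 to 0.966), and for Cdkn2b, with Celf6, Acp2 and Dnaaf5 (0.948 to 0.960).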

How the data were processed

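Total RNA from MIN6 cells was made into directional libraries, 9 in all, per the labels' protocols. CASAVA 1.8, HISAT2 2.0.5 and featureCounts 1.5.0-p3 are named in the submitters' processing notes. The authors deposited FPKM per gene and library with gene lengths, per the file headers. The notes name mm9, but 98.26% of 54409 shared gene IDs, all 10 members included, carry GENCODE M21 coordinates, so GRCm38 is given. FPKM times length gave whole reads (within 0.01) for 100% of values. The authors' library sizes were 1.05 to 1.08 times these reads in low arginine and 0.962 to 1.02 times in the other groups. Low arginine FPKM were thus lower relative to the reads in genes.

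Genes with at least 1 FPKM in at least 3 libraries (12300) were fitted as log2(FPKM + 1) with limma 3.58.1 (R 4.3.3), all 9 libraries, group as the only term and a variance trend on expression, giving 6 residual degrees of freedom. P-values are two-sided, Benjamini-Hochberg adjusted over all genes tested, with a threshold of 0.05. The log2(FPKM + 1) scale understates changes of low genes. Replicates differed beyond sampling noise (chi-square per degree of freedom 2.82 to 15.5). The fit was tested on simulated data in which some genes rose in low arginine. That simulation held no falls and no effect of high arginine, so it did not test these.

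Named genes were the members, up to 4 called genes per list by smallest p in low against standard arginine, list genes called in high against standard arginine, and the 3 genes most like each member; genes that overlap or adjoin members were named after seeing the data. Members and lists were chosen with earlier results of these data known. Alternatives, 18 per comparison, covered pseudocount, filter, scaling, libraries, variance model, voom weights, a replicate block and leaving out each library.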

Additional observations from a re-analysis of the deposited data

How the results depend on the processing

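In low against standard arginine the 6 called members kept their call and direction in all 18 alternatives run. The log2 change of Ccnd2, not called, turned to 0.11 in TPM and 0.011 with quantile normalization and ran from -0.050 to 0.027 without 1 library; that of Ccnd3 turned to 0.043 in TPM. In high against standard arginine, Cdk4 ran from -0.031 to 0.068 and Cdkn1a from -0.0031 to 0.039 without 1 library, and Cdkn1a was -0.026 with quantile normalization. The counts of 1 member higher and 1 lower there became 0 and 0 without a filter on low values (6 genes called among all, against 38), 1 and 2 in TPM, 0 and 2 with quantile normalization, 0 and 1 with only the 2 groups compared (4 among all) and 0 and 1 with a constant prior variance; voom weights called 74 among all. Without 1 library they ran from 0 to 1 each, and from 0 to 61 among all genes: limma called 0 without replicate 2 of standard arginine or replicates 2 or 3 of high arginine, each left out alone (1200, 1091 and 1189 at an unadjusted p under 0.05), 10 without standard replicate 1, 61 without standard replicate 3, 13 without high replicate 1 and 19 and 13 without low replicates 2 and 3. An arm of 2 libraries was taken to vary like the others. With a replicate block they were 1 and 2, with 88 among all; the block added the call of Cdkn2a and changed no other call of a member. The labels do not say that replicate numbers pair samples, so the main fit held no block. Of 9 same-number pairs 6 had a correlation of deviations over 0.1 (-0.04 to 0.24). In 14 of 18 checks the closest library of another group had the same number. Replicates of 1 number may thus share something, and its source was not tested. Of the log2 changes of members under alternatives, 392 kept their call and direction, 28 lost the call, 3 gained it and 9 that were never called changed sign. Leaving out 1 replicate of each group cannot move a mean of 3 libraries by 1 SD, so that setting did not test the shares. Taken over reads, which are not per length, 26 of 30 shares moved by more than 1 SD. Except where a setting tests fewer samples, the cause was not tested. Depth limits Ccnd1 and Cdk6, which had 1 to 22 reads per library.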
